A study of Arabidopsis thaliana with 12 samples.

Results

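The genes described here are those whose transcripts were at least 2-fold lower in the prors1 mutant of Arabidopsis thaliana than in the wild type (WT), on probes annotated to a single gene. Members were chosen by the difference itself. The 12 arrays were brought to a common distribution by quantile scaling, a floor of 0.0467 (the 5th percentile of all positive values) was put under zeros and dim values, and log2 was taken. Probes with a mean prors1 minus mean WT difference of -1 or less were kept. A set of 7 such genes was left out, 6 listed by name alone and PSBY (AT1G67740) also as one of the 100 brightest probes in WT. Of 692 single-gene probes, among 3439 probes in all, 44 lay at -1 or less and 37 remained as members. Because the difference chose them, their differences are given as a description, with no test.

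Total RNA was measured on single-channel arrays in 6 prors1 samples and 6 WT samples, numbered 1 to 6 in each genotype and both of the Columbia 0 ecotype. The labels describe the mutant as lacking a prolyl tRNA synthetase. The allele, the tissue, the age and the growth conditions are not given in the sources used here, nor is whether the numbered samples came from separate plants. The spread behind any error or p-value may therefore be technical. None of 19 loci drawn up as markers of seeds, senescence, green leaves and roots was on a single-gene probe, so the tissue was not checked here. In bulk RNA, fewer cells of a type and less RNA per cell cannot be told apart.

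As background, an aminoacyl-tRNA synthetase loads an amino acid onto its transfer RNA, and PRORS1 does this with proline for the ribosomes of both plastids and mitochondria. Most proteins of these organelles are encoded in the nucleus, made in the cytosol and imported. Nuclear transcript levels are known to respond to the state of the organelles, a response called retrograde signalling. Complete loss of PRORS1 stops seed development in Arabidopsis, and plants studied as adults carry weaker alleles. The members have many different known roles. A role, or a family or domain taken as one, could be stated from general knowledge for 22 of them. The other 15 are named by locus or symbol only, except that a domain is also named for AT1G70180.

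The size of the decrease belongs to the scaling. The median deposited intensity per array ran from 0.25 to 0.444 in prors1 and from 0.135 to 0.169 in WT, on a scale that ends at 100. Between 6.25% and 9.19% of probes were deposited at 0 in prors1, against 10.7% to 11.5% in WT. Without scaling, the log2 difference of the median probe was 0.87 in favour of prors1. On those values only 1 member, AT3G51500, was at -1 or less, 25 members were below 0 and 12 were at 0 or above. All 37 members lay below the median probe there, as they did after quantile scaling, after division by array medians and after cyclic loess. These are scalings of the arrays that chose the members, so this is a description only. The members are thus 2-fold lower relative to the distribution of the array, and on the deposited values a fall of that size was measured for 1 of them.

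After quantile scaling the members were 2.02-fold to 4.26-fold lower in prors1, with a median difference of -1.19 against 0 over all probes. A difference of -1 or less was found for 7.91% of all probes and 6.36% of single-gene probes. The highest prors1 value was under the lowest WT value for 22 of the 37 members, where this held for 14.1% of the 3304 features tested. Both shares come from the contrast that chose the members, so nothing is read from them. In 21 members no sample was at the floor. In 16 members 1 to 5 of the 6 prors1 values were at the floor after quantile scaling. This understates the fold on that scale where the floor stands for a lower value. It does not mean that the signal was absent, since 35 of the 37 members had no value of 0 as deposited. The deposited difference was at 0 or above for 12 of the 37 members, so a larger fall is not shown. AT2G27680, 1 of the 16 members with prors1 values at the floor, also had a WT value there, so which way its fold is moved is not fixed.

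**Figure D1:**
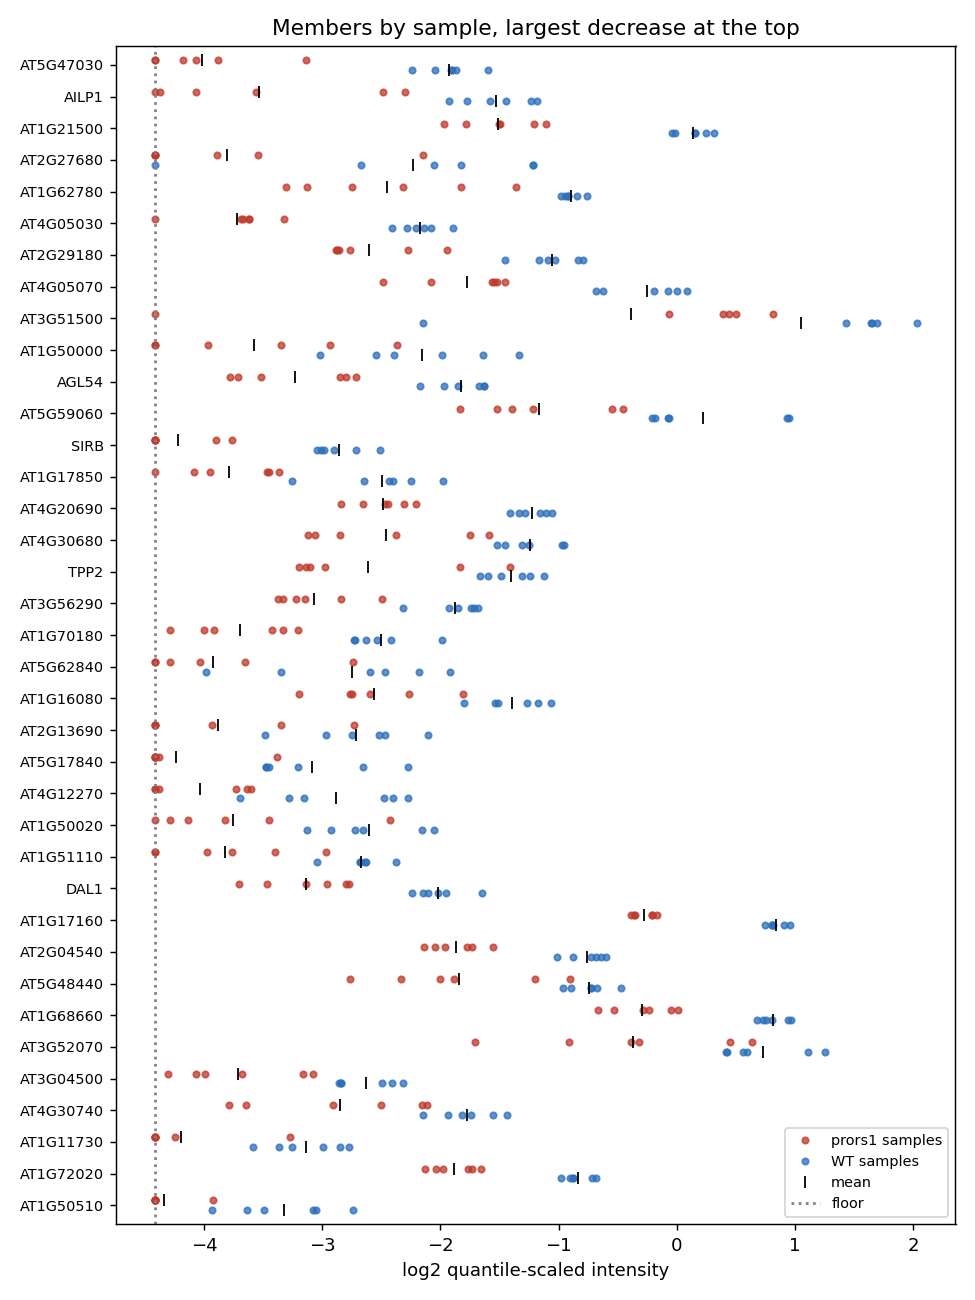
Values of the 37 members in every sample (log2 quantile-scaled intensity on the horizontal axis), with prors1 samples in red above WT samples in blue, black ticks for the group means and a dotted line at the floor. The groups are apart in 22 members and overlap in 15, and the prors1 points of 16 members touch the floor.

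Among genes of energy and metabolism, AT5G47030 had the largest difference of all members. It encodes the delta prime subunit of the mitochondrial ATP synthase, part of the rotating stalk of the enzyme's catalytic head. Its scaled intensity ran from 0.0467, the floor, to 0.113 in prors1 and from 0.211 to 0.331 in WT, with 2 prors1 samples at the floor. The difference was -2.09 ± 0.21 on the log2 scale (SE, n = 6 each), which is 4.26-fold. It was at -1 or less in all 6 same-numbered pairs of samples, and the groups did not overlap. It was also among the members that stayed furthest below 0 as deposited, at -0.90.

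A pair of metabolic members had intensities well above the floor and little spread. AT1G17160 encodes a ribokinase of the pfkB family, which phosphorylates free ribose. Its scaled intensity was lowest at 0.767, with a median of 0.824 and a highest value of 0.893 in prors1, against 1.68, 1.75 and 1.94 in WT. Every prors1 sample was below every WT sample, and this held on the deposited values too, where prors1 ended at 1.15 and WT began at 1.53. The log2 difference was -1.12 ± 0.05 (SE, n = 6 each), the smallest error of any member, with standard deviations of 0.10 in prors1 and 0.08 in WT. AT2G04540 encodes the beta-ketoacyl synthase of mitochondria, the condensing enzyme of the fatty acid synthesis that feeds lipoic acid production. It had a lowest, median and highest intensity of 0.226, 0.274 and 0.34 in prors1 and of 0.494, 0.614 and 0.662 in WT, again without overlap. Its difference was -1.11 ± 0.11 (SE, n = 6 each), and on the deposited values it was -0.24.

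SIRB (AT1G50170), the sirohydrochlorin ferrochelatase, inserts iron in the last step of siroheme synthesis. Siroheme is the cofactor of nitrite and sulfite reductases. SIRB had 4 prors1 samples at the floor and a highest prors1 value of 0.0738, while WT samples lay between 0.121 and 0.176. On these scaled values the groups did not overlap, and the difference of -1.36 ± 0.15 (SE, n = 6 each) is bounded by the floor. As deposited the groups overlapped, with medians of 0.0730 in prors1 and 0.0736 in WT. The deposited prors1 values ran from 0.0233 to 0.121, around WT values of 0.0620 to 0.0887, and the difference was -0.12. AT1G50510, a glycosidase that splits pseudouridine monophosphate into uracil and ribose phosphate, was dimmer still. It had 5 prors1 values at the floor, a WT range of 0.0656 to 0.15 and a difference of -1.02, the member nearest to the threshold.

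The 6 other metabolic members were each given a role by enzyme family only. AT2G27680, an aldo-keto reductase, had a difference of -1.57 with an SE of 0.61, and its groups overlapped, with 3 prors1 samples and WT replicate 6 all at the floor. AT1G17850, with a rhodanese domain, had a difference of -1.29 and no overlap. AT5G48440, an FAD-dependent oxidoreductase, was at -1.11, with prors1 values from 0.147 to 0.536 and WT values from 0.514 to 0.723. Its overlap came from a single prors1 sample, replicate 5, against WT replicate 6. AT5G62840 of the phosphoglycerate mutase family was at -1.18, AT4G12270 of the copper amine oxidase family at -1.15 and AT1G11730 of the galactosyltransferase family at -1.06, and the groups of all 3 overlapped. In total the groups were apart for 5 of the 11 metabolic members after quantile scaling, where this held for 14.1% of all features tested. The members were chosen by this contrast, so nothing is read from the count.

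The protein turnover and folding members were AT1G68660, TPP2 and AT5G17840. AT1G68660 encodes ClpS1, an adaptor that delivers substrates to the Clp protease of the plastid. Its lowest, median and highest scaled intensities were 0.628, 0.835 and 1.01 in prors1 and 1.61, 1.71 and 1.96 in WT. The groups were apart by a wide margin, and they were apart on the deposited values as well, with prors1 ending at 1.07 and WT beginning at 1.52. The log2 difference was -1.11 ± 0.12 (SE, n = 6 each).

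TPP2 (AT4G20850), tripeptidyl peptidase II, is a large serine peptidase that removes tripeptides from protein fragments. Its values were 0.109, 0.122 and 0.376 (lowest, median and highest) in prors1 and 0.315, 0.38 and 0.459 in WT. The overlap came from prors1 replicate 5, and the difference was -1.21 ± 0.33 (SE, n = 6 each). AT5G17840 carries the cysteine-rich domain of DnaJ-type chaperones. It had 4 prors1 values at the floor, WT values between 0.0899 and 0.206, overlapping groups and a difference of -1.15.

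In RNA handling and translation, AT4G30680 encodes a protein with the MA3 domain that is also found in translation initiation factor eIF4G. Its lowest, median and highest intensities were 0.115, 0.166 and 0.333 in prors1 against 0.348, 0.412 and 0.517 in WT. The groups were apart, narrowly, and the difference was -1.21 ± 0.29 (SE, n = 6 each). AT1G50000 belongs to the methyltransferase family of bacterial RsmE, which modifies ribosomal RNA in bacteria, and had a difference of -1.42 ± 0.43 (SE, n = 6 each) with overlapping groups and 2 prors1 samples at the floor. AT3G04500, with an RNA recognition motif, was at -1.09 after quantile scaling, with prors1 values of 0.0505 to 0.119 below WT values of 0.138 to 0.2. On the deposited values its difference was 0.30, the highest of any member.

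AGL54 (AT5G27090), a type I MADS-box transcription factor gene, was the only member assigned to transcription. Its values were 0.0728, 0.113 and 0.153 (lowest, median and highest) in prors1 and 0.222, 0.295 and 0.322 in WT. Every same-numbered pair was at -1 or less, and the difference was -1.41 ± 0.22 (SE, n = 6 each). On the deposited values it was -0.19.

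The members of stress, metal and lipid families were AILP1, AT4G05070, AT4G05030 and AT1G51110. AT4G05070 belongs to a family described as wound-responsive. Its lowest, median and highest intensities were 0.178, 0.34 and 0.364 in prors1 and 0.622, 0.912 and 1.06 in WT. The genotypes did not overlap on scaled or on deposited values, and the difference was -1.53 ± 0.22 (SE, n = 6 each).

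AILP1 (AT5G19140), of a family of aluminium-induced proteins, had the second largest difference, -2.01 ± 0.40 (SE, n = 6 each). Its prors1 values ran from the floor of 0.0467 to 0.203 and its WT values from 0.262 to 0.44, without overlap. The difference was -1.96 for replicates 1 and 2, -2.88 for 3 and 4 and -1.19 for 5 and 6. AT4G05030, with a heavy-metal-associated domain, had prors1 values up to 0.0998 and WT values from 0.188 to 0.27, at a difference of -1.55. AT1G51110, a fibrillin, is of a family of lipid-binding plastid proteins. It was at -1.15, with overlapping groups and 2 prors1 samples at the floor.

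Of the 15 members with no stated role, AT1G21500 had the largest difference without a value at the floor. Its scaled intensity was 0.256, 0.353 and 0.465 (lowest, median and highest) in prors1 and 0.975, 1.11 and 1.24 in WT. The groups were far apart, and they were apart as deposited too, at 0.359 to 0.582 in prors1 and 0.782 to 1.03 in WT. The difference was -1.65 ± 0.15 (SE, n = 6 each), or 3.13-fold, and no member without floor values lay lower on the deposited values, where it was at -0.98.

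AT1G62780 and AT2G29180 showed the same ordering with different spreads. AT1G62780 had a lowest, median and highest value of 0.101, 0.174 and 0.389 in prors1 and of 0.507, 0.528 and 0.59 in WT. Its prors1 samples had a standard deviation of 0.76 on the log2 scale, while the WT samples were almost level, with one of 0.08. The difference was -1.56 ± 0.31 (SE, n = 6 each), made up of -1.70, -2.29 and -0.69 in replicates 1-2, 3-4 and 5-6. AT2G29180 had values of 0.135, 0.142 and 0.26 in prors1 and of 0.365, 0.48 and 0.579 in WT. Its groups did not overlap, and its difference was -1.54 ± 0.19 (SE, n = 6 each).

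AT5G59060 had a lowest, median and highest intensity of 0.28, 0.406 and 0.727 in prors1 against 0.867, 0.951 and 1.93 in WT. Replicates 5 and 6 were the brightest samples in each genotype, and the difference was nearly level over the sets, at -1.33, -1.39 and -1.44. AT4G20690 had values of 0.139, 0.182 and 0.216 in prors1 and of 0.375, 0.43 and 0.482 in WT. Its groups were apart with a small error, at -1.26 ± 0.11 (SE, n = 6 each).

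The next 4 members without a role and without a value at the floor lay closer to the threshold, and their groups did not overlap. AT3G56290 had intensities of 0.0966, 0.11 and 0.177 (lowest, median and highest) in prors1 and 0.2, 0.288 and 0.311 in WT, a difference of -1.19. AT1G70180, with a sterile alpha motif domain, had 0.0512, 0.0796 and 0.108 in prors1 and 0.15, 0.167 and 0.253 in WT, a difference of -1.19. AT1G16080 had 0.109, 0.157 and 0.285 in prors1 and 0.287, 0.382 and 0.478 in WT, a difference of -1.17. In AT1G16080 the highest prors1 sample almost touched the lowest WT sample. The probe that the platform annotation names DAL1 had 0.0768, 0.121 and 0.146 in prors1 and 0.212, 0.24 and 0.319 in WT, a difference of -1.12. Its gene identifier was not matched to the gene table used here, where DAL1 names another gene, so no role is given to it.

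AT3G51500 differed from the other members in its spread. Its scaled intensity was 0.955 to 1.76 in 5 prors1 samples and 2.70 to 4.10 in 5 WT samples, but replicate 5 was at the floor of 0.0467 in prors1 and at 0.226 in WT. All 6 same-numbered pairs were at -1 or less, between -2.27 and -1.05. The difference of -1.44 had an SE of 1.04 when the samples were taken as unpaired. It was -0.63 without prors1 replicate 5, -2.07 without WT replicate 5 and -1.28 with both left out, so this gene remained past the threshold when the low samples of both genotypes were removed together. The remaining 5 members without a role were AT2G13690 (-1.16), AT1G50020 (-1.15), AT3G52070 (-1.10), AT4G30740 (-1.08) and AT1G72020 (-1.04). Of these only AT1G72020 had groups that did not overlap, at 0.229 to 0.318 in prors1 and 0.507 to 0.624 in WT.

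Within a genotype samples 1-2, 3-4 and 5-6 resembled each other, with standard deviations of their log2 ratios of 0.355 to 0.449 over 2386 features, against 0.428 to 0.762 for other samples of a genotype. All 37 members were below 0 in each of these sets, and 34 were lower in all 6 same-numbered pairs, which held for 24.6% of all features tested. Sets and pairs are parts of the values that chose the members, so nothing is read from these shares. The median difference of the members was -1.26 for samples 1-2, -1.41 for 3-4 and -1.04 for 5-6, against 0 over all probes in each. Members at -1 or less numbered 30, 33 and 20 in these sets, and 15 were at -1 or less in all 3. The largest gaps between sets were those of AT2G27680, at -2.90 for samples 3-4 and -0.18 for 5-6, and of AT5G48440, at -1.82 and -0.13.

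**Figure D2:**
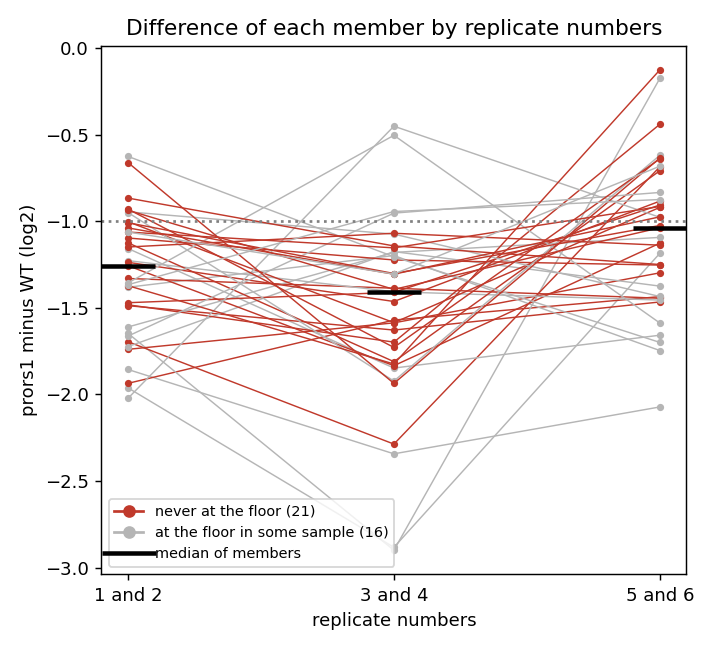
Difference between prors1 and WT (log2, vertical axis) for each member, computed from replicates 1 and 2, 3 and 4, and 5 and 6 (horizontal axis), with red for the 21 members never at the floor, grey for the other 16 and black bars for the medians of -1.26, -1.41 and -1.04. All points lie below 0, and 20 of 37 are at -1 or less in replicates 5 and 6.

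Within a genotype, samples 5 and 6 were often the brightest for the members. The members were chosen from these same values, so the counts that follow are a description. Among the 21 members never at the floor, prors1 replicates 5 and 6 were the 2 brightest prors1 samples for 14, where this held for 29.5% of the 461 single-gene probes never at the floor. WT replicates 5 and 6 were the 2 brightest WT samples for 12 of the 21 members, against 20.8% of those probes. Both patterns held together for 10 members. The deposited array medians of prors1 replicates 5 and 6 were 0.25 each, below the 0.353 to 0.444 of the other prors1 arrays, and the part of this in the members' levels was not tested. The members' spread was also unequal between genotypes. The standard deviation on the log2 scale had a median of 0.43 in prors1 and 0.22 in WT over these 21 members, against 0.34 in prors1 and 0.24 in WT over the 461 probes. It was larger in prors1 for 20 of the 21 members and for 314 of the 461 probes. The members were chosen for low prors1 values, and the part of the lower level in this spread was not tested, so nothing is read from the comparison.

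The scaling acted differently on bright and dim members. After division by array medians all 37 were below 0, against 52.9% of all probes, and 27 were at -1 or less, where 15.8% of all probes were. After cyclic loess all 37 were below 0, against 52.5% of all probes, and 32 were at -1 or less, against 8.55% of all probes. As deposited, 13.5% of all probes were below 0 and 1.25% were at -1 or less. Each scaling starts from the arrays that chose the members, so nothing is read from the members' counts beside the shares of all probes. The bright members AT1G17160, AT1G68660, AT3G52070 and AT5G59060 had larger differences after division by medians (-1.87, -1.83, -1.76 and -1.88) than after quantile scaling. The dim members AT1G50510, AT3G04500 and AT4G12270 had smaller ones, at -0.73, -0.85 and -0.85. As deposited the groups did not overlap for 4 members, AT1G21500, AT4G05070, AT1G17160 and AT1G68660, and this held for 3.49% of all probes.

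**Figure D3:**
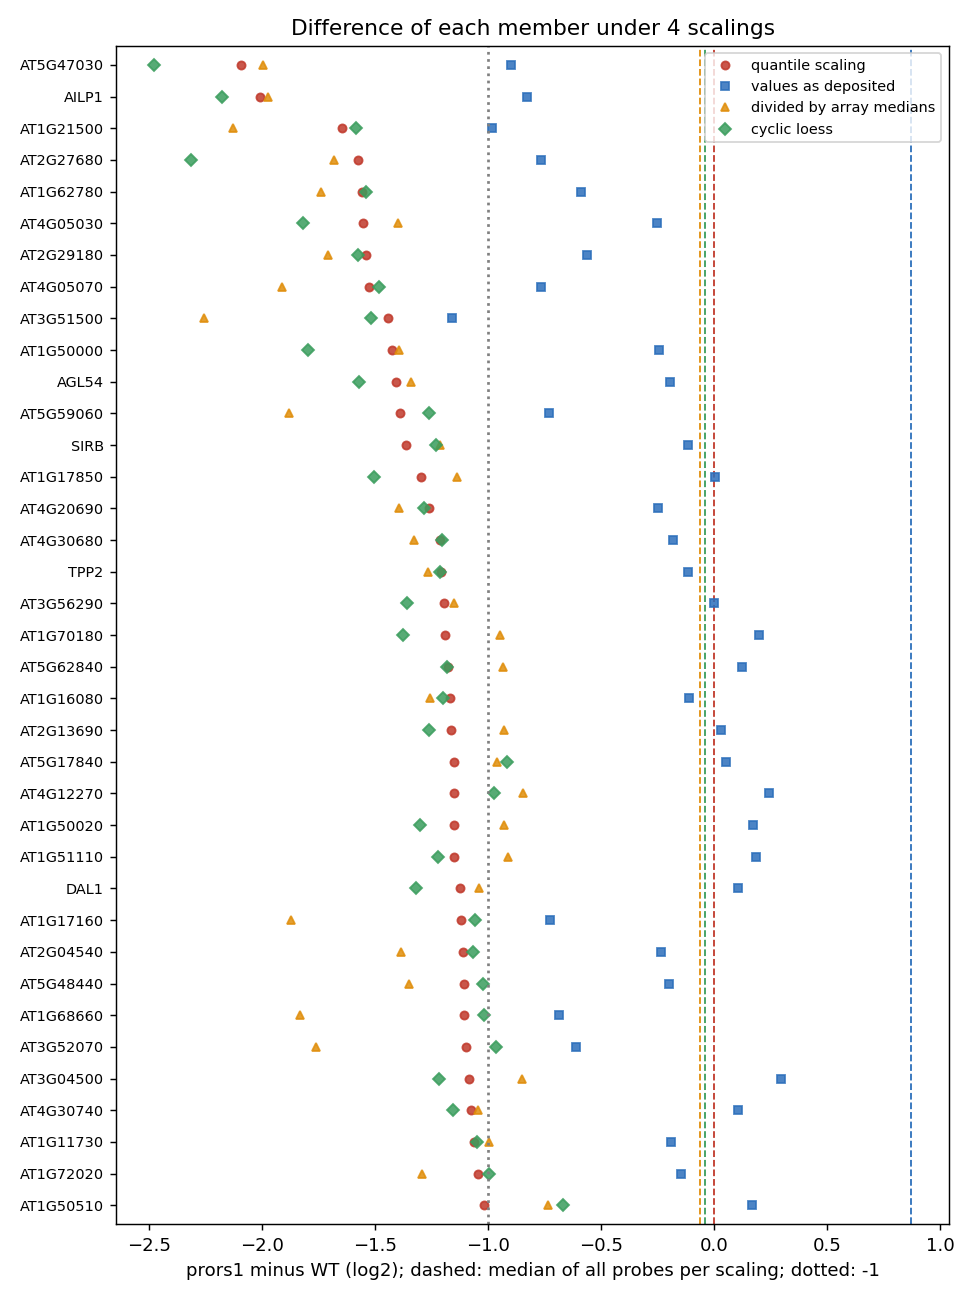
Difference between prors1 and WT (log2, horizontal axis) of each of the 37 members under 4 scalings, with dashed lines for the median of all probes under each and a dotted line at -1. The blue squares of the values as deposited run from -1.16 to 0.30, all left of their own median line at 0.87.

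The rule left out the brightest probes and the floor bars the dimmest, so the members' levels lie within limits set by their choice. Their median WT intensity after scaling was 0.291, against 0.222 over all single-gene probes, and ran from 0.0999 for AT5G17840 to 3.13 for AT3G51500. A probe could reach -1 only where its WT mean lay at least 1 above the floor on the log2 scale. This held for 540 single-gene probes, of which 8.15% were at -1 or less. The 3 members just inside the threshold were AT1G11730 at -1.06, AT1G72020 at -1.04 and AT1G50510 at -1.02. The 3 genes just outside were UBA1A at -0.996, AT1G03810 at -0.993 and AT3G04650 at -0.99, so the boundary falls within a continuous run of values. Leaving out 1 sample moved 8 members to the other side of -1 at least once. These were AT3G51500, as given above, AT3G52070 (-0.854), AT4G30740 (-0.918) and AT5G48440 (-0.955) without prors1 replicate 3, AT3G04500 (-0.993) without prors1 replicate 4, and AT5G17840 (-0.994) and AT1G11730 (-0.999) without WT replicate 5. AT3G52070 also crossed without WT replicate 5 (-0.981), and AT4G30740 without prors1 replicate 4 (-0.945) and without WT replicate 6 (-0.998). AT1G50510 crossed without prors1 replicates 1, 2 or 6 and without WT replicates 1, 3 or 5, and its smallest difference was -0.901 without WT replicate 3.

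**Figure D4:**
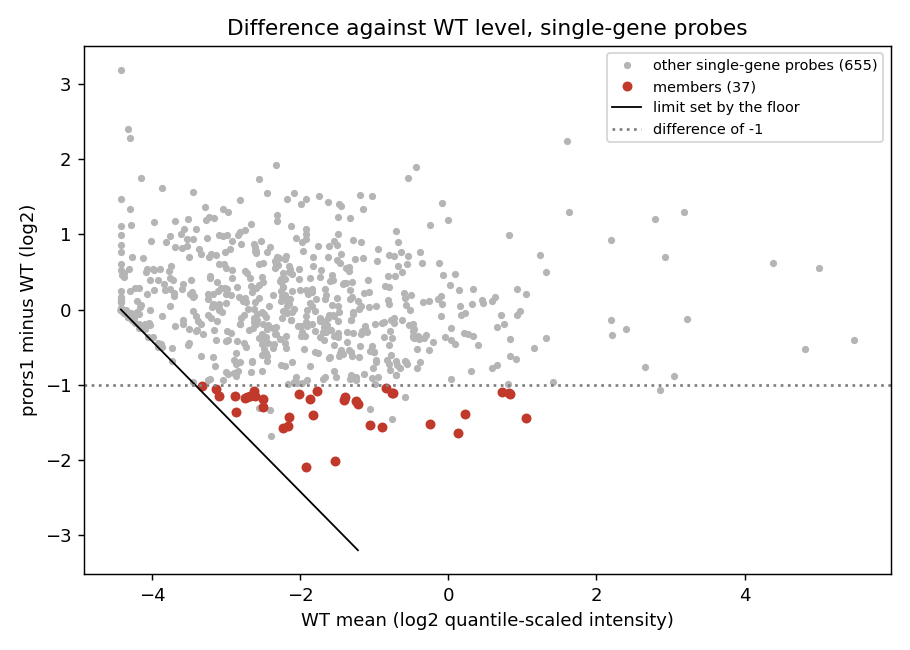
Difference between prors1 and WT (log2, vertical axis) against the WT mean (log2 quantile-scaled intensity, horizontal axis) for the 692 single-gene probes, with the 37 members in red, a black line for the lowest difference the floor permits and a dotted line at -1. The dimmest members lie close to the black line, and grey points below -1 are the 7 genes left out.

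Relatives of the members in 6 families or pathways were looked up from a list of 66 loci written from general knowledge after the members were known. Of 5 measured relatives that were not members, none was lower, 1 was higher and 4 did not pass the test in limma, at an adjusted p threshold of 0.05 after quantile scaling. The background was 23.2% lower and 19.6% higher over all 3304 features. BSD2 (AT3G47650), a DnaJ-type zinc finger protein needed for Rubisco assembly, was higher in prors1 by 0.33 ± 0.09 (SE, adjusted p = 0.00745 in limma). That fit takes the 6 samples of a genotype as independent. BSD2 was at 0.38 after cyclic loess, but at -0.38 when arrays were divided by their medians. As deposited BSD2 was at 0.77, where the median probe was at 0.87. It shares the cysteine-rich domain type with the member AT5G17840. The fibrillins AT2G35490, AT5G09820, AT5G19940 and AT2G46910, relatives of the member AT1G51110, had differences of -0.17, 0.39, -0.30 and 0.58 and did not pass. None of the listed relatives of the ATP synthase, Clp protease, siroheme and mitochondrial fatty acid synthesis members was on a single-gene probe. Relatives outside the list were not looked up.

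Of the 36 members found in the TAIR10.1 gene table, 14 were on chromosome 1, 4 each on chromosomes 2 and 3, and 7 each on chromosomes 4 and 5. The single-gene probes numbered 174, 124, 130, 120 and 143 on chromosomes 1 to 5. Several members were near neighbours in gene order. A single protein-coding gene lies between AT1G50000 and AT1G50020, and 10 lie between AT1G50020 and SIRB. AT4G05030 and AT4G05070 have 3 genes between them, AT4G30680 and AT4G30740 have 5, and AT4G20690 and TPP2 have 16. How often single-gene probes of this array are neighbours was not compared.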

How the data were processed

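Total RNA of 6 prors1 and 6 WT samples was measured on single-channel arrays. The deposited intensities are linear and never negative. How the authors labelled, scanned, corrected or scaled them was not stated in the labels. The number of arrays limits the precision.

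Probes were named from the platform annotation (1 gene for 692 probes, several for 870, none for 1877), with current names taken by gene identifier from the TAIR10.1 gene table, where 690 were found. No build is named for the probes, so no coordinates are given.

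Arrays were quantile-scaled in limma 3.58.1 (R 4.3.3), a floor was set at the 5th percentile of positive values (13.7% of values lay at or under it), and log2 was taken. The limma fit (lmFit, then eBayes, with genotype as the only term and two-sided Benjamini-Hochberg adjusted p) covered the 3304 features above the floor in at least 1 sample. It was used for the background and for genes that are not members. In 5 simulated runs with 200 changed features among 3304, it recovered 71.9% of 2-fold changes and made 7 false calls per run. The simulated noise was normal, with the same spread in both genotypes and no floor. Shared deviations between arrays were not simulated. The rates may therefore differ in the measured data.

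All members are named. The first 15 in order of difference among those never at the floor have full values. The members, gene lists and alternatives were chosen with earlier results of these data known. Same-numbered samples of both genotypes deviated together from their group means (correlation 0.346 to 0.489 over 2386 features). Samples with different numbers were not compared across genotypes in this way. Whether the numbers pair single samples, or only the sets of neighbouring samples described above, was therefore not tested. The labels do not say what a number marks. Gene classes by words in the gene table reached 14 of 659 single-gene features and 1 member (AGL54), too few to describe. Among the other 13, 3 of 5 plastid, 1 of 3 transcription, 2 of 3 kinase or phosphatase and 1 of 1 ubiquitin features were lower in limma, 0 of 1 transport features was, and none was higher. Over all 3304 features 23.2% were lower and 19.6% higher. Nothing is read from class counts this small. Promoter motifs were not analysed here.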

Additional observations from a re-analysis of the deposited data

Results flagged for a closer look

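In 57 groups of 6 samples, those of the 37 members without a value at the floor, 1 sample stood far from the others of its group. Chance gives about 1 in 20 such groups, so 1 in 57 is not more than chance gives. AT3G51500 was at the floor in prors1 replicate 5, and its WT replicate 5 had a log2 quantile-scaled intensity of -2.15, far below the next WT value of 1.43. The other 17 groups held floor values, which have no order, and were not checked.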

How the results depend on the processing

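Values as deposited changed most results. The rule then gave 1 gene in place of 37, the median of the members was -0.19, their groups did not overlap for 4 in place of 22, and limma called 182 features lower and 2032 higher in place of 766 and 649. On those values 12 members were above 0, which were AT1G17850 (0.005), AT2G13690 (0.030), AT5G17840 (0.052), AT4G30740 (0.104), DAL1 (0.106), AT5G62840 (0.122), AT1G50510 (0.167), AT1G50020 (0.173), AT1G51110 (0.184), AT1G70180 (0.198), AT4G12270 (0.241) and AT3G04500 (0.297). The cause was not tested. No member was above 0 under any other alternative run. The rule gave 69 genes with arrays divided by their medians, 27 of them members, and 24 without the dimmest 25% of features, where fewer genes were tested. It gave 56 with the floor at the 1st percentile, all 37 members among them, and 27 with the floor at the 10th percentile, all of them members. Above -1 at the 10th percentile were SIRB, AT5G62840, AT2G13690, AT5G17840, AT4G12270, AT1G50020, AT1G51110, AT3G04500, AT1G11730 and AT1G50510. Their differences there ran from -0.893 for AT3G04500 to -0.447 for AT1G50510. With replicates 1-2, 3-4 and 5-6 averaged, limma called 391 features lower and 358 higher on fewer samples. With these sets as a random block on all samples, limma called 542 features lower and 454 higher, also fewer than in the main fit. With the replicate block it called 876 lower and 789 higher, within 1.5 times the counts without it. Leaving out 1 sample at a time gave 38 to 49 genes by the rule, 22 to 29 members without overlap, a median of -1.301 to -1.145, and 688 to 801 lower and 581 to 690 higher calls. In these fits 8 members rose above -1 at least once, with AT3G51500 the furthest at -0.633 without prors1 replicate 5, and at -1.28 without replicate 5 of both genotypes (added after seeing the data). Signal near the floor limits the folds of members with prors1 values there. AT3G51500 is bright and at the floor in prors1 replicate 5 alone.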
